A study of Mus musculus with 8 samples.

Results

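The genes described here encode the machinery that licenses and copies DNA: the origin recognition complex, the loaders Cdc6 and Cdt1 with their inhibitor geminin, the MCM helicase and its activators Cdc45 and GINS, the sliding clamp and its loader, the replicative polymerases and primase, replication protein A and the enzymes that join Okazaki fragments. They were chosen by symbol, as a list of 43 genes of known role in replication. Of these, 41 were found among the 13101 genes of the table, and Pold1 and Fen1 were not analysed here. RNA had been measured in 8 pools of mouse 2-cell embryos, each of 12 to 18 embryos, 4 from embryos labelled Dux KO and 4 from wild type (WT) embryos, all of the C57BL/6 background and harvested after timed matings. Dux encodes a transcription factor with a pair of homeodomains that acts in early embryos. The labels do not describe the knockout allele, the parents or whether pools shared them, so that p-values measure only the spread between these pools.

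In each cell cycle the origin recognition complex marks origins, and Cdc6 and Cdt1 load the MCM double hexamer there in an inactive form; geminin binds Cdt1 and keeps origins from being licensed again within the cycle. In S phase, Cdc45 and the GINS tetramer join MCM to form the active helicase, after which primase, the polymerases, the clamp and its loader copy both strands. The first cleavages of the mouse embryo start from transcripts stored in the oocyte, to which embryonic transcription is added at the 2-cell stage, and in many cell types genes of this machinery are transcribed under control of E2F factors.

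The window around the start site is shown for Gins3, a GINS subunit that fell in Dux KO, and for Orc5, the member that rose, because these were the called members of large change with a window in the RefSeq table (GRCm38.p6, 250 bases before to 50 after the start; 33 of the 41 members had at least 1 window). Capitals mark matches, on either strand, to an E2F motif (TTTCCCGC, TTTCGCGC, TTTGCCGC or TTTGGCGC), the CCAAT box (CCAAT), the CHR element of cell cycle promoters (TTTGAA) or a DUX motif (TGATT, any 2 bases, ATCA). The Gins3 window is chr8:95633309-95633608 on the plus strand and the Orc5 window chr5:22550289-22550588 on the minus strand.
Gins3: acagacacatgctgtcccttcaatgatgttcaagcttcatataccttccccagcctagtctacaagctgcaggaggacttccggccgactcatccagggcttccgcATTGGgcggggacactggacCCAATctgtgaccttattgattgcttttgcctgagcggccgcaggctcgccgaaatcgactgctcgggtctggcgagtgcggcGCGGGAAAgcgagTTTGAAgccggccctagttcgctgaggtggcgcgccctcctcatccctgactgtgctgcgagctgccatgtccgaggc
Orc5: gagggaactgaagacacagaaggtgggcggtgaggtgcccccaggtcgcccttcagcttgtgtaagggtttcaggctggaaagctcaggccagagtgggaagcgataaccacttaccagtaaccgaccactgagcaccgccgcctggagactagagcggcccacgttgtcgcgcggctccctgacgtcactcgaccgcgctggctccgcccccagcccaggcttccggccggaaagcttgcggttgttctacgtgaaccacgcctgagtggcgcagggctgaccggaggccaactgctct
In the Gins3 window an E2F match began 41 bases before the start (position -41), CCAAT matches at -144 and -124, and a CHR match at -28. The Orc5 window held no match to these letters, so that all of it is in lower case.

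Across the members, 16 of 40 windows held an E2F match (40%), against 2.27% of all 32851 windows of the same length. The members' windows were richer in G and C (median 61.8% against 52.7%). By gene, E2F matches were found for 4 of the 5 members with a window that fell (Gins3, Mcmbp, Orc1 and Orc3, but not Cdc45) and for 12 of the 27 with a window that were not called. The other members that fell, Gins1, Gins2, Gmnn and Pole, had no window. These counts thus leave out the 3 members, Gins1, Gins2 and Gmnn, whose call held in every alternative. CCAAT was found in 24 of the 40 windows (60%) and in 37.4% of all, and TTTGAA in 4 (10%) and 17.9%. The DUX letters were in none of the 40 windows and in 0.207% of all. These are matches of letters in windows set by RefSeq start sites, which the transcripts of oocytes and embryos need not use.

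The comparison asks how transcripts of 2-cell embryos differ when Dux is lost. Each pool held 12343369 to 14548526 recovered gene reads, and a member had 34 to 29316 reads in a pool, Lig1 the fewest and Gmnn the most. The Dux transcript was not analysed here and so did not check the labels. MERVL-int, the internal part of an endogenous retrovirus that DUX is known to activate, stood at 11360 to 16381 FPM in WT and at 4548 to 6050.2 FPM in Dux KO. FPM are by name fragments scaled to library size, and no label states how that size was set. All 5 markers of the 2-cell embryo (Zfp352, Zscan4d, Zscan4c, Usp17lb and Tcstv3) were detected, and 0 were called higher or lower. Their summed levels were 147.7 to 278.8 FPKM in WT against 174.5 to 269.4 FPKM in Dux KO. These ranges overlapped while those of MERVL-int did not, so that MERVL-int alone does not settle the labels. FPKM are by name fragments scaled to transcript length and library size, and no label states how the library size was set. Of 8 cumulus and granulosa markers 3 had a row (Inha, Tnfaip6 and Cyp19a1, which rose), together at 1.25 to 9.07 FPKM in WT against 4.45 to 18.8 in Dux KO. Of 5 oviduct markers 2 had a row (Ovgp1 and Krt18), at 3.435 to 13.9 and 5.65 to 31.6 FPKM, highest in Dux KO pools 1 and 2, and the 3 blood and 3 sperm markers had none. Of 6 oocyte and maternal genes Bmp15 and Oosp1 rose, Zp3 and Dppa3 fell, and Gdf9 and Nlrp5 were not called; the list summed to 6142 to 7315 FPKM in WT against 5031 to 8351 in Dux KO. The part of these markers in the results below was not tested.

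Of the 41 members, 9 were lower in Dux KO (Gins1, Gins3, Gmnn, Gins2, Orc1, Pole, Cdc45, Orc3 and Mcmbp), 1 was higher (Orc5) and 31 were not called (limma on log2(FPKM + 1), adjusted p under 0.05 over all 12434 genes tested). Thus 24.4% of members were called, against 33.6% of all genes tested. Lower were 21.95% of members, near the 18.1% of all genes, and higher 2.44%, where 15.5% of all genes were. The 4 values of a group did not overlap those of the other for 11 members, 26.8%, against 33.1% of all genes tested. The median log2 fold change (Dux KO minus WT) was -0.18 over the members and -0.02 over all genes, and 30 of the 41 fitted values were below 0 (73.2%, against 51.6%). Among the 6468 genes that reached a mean of 5 FPKM or more, however, the median of all was also -0.18, that of the 32 members among them -0.19, and 29.1% of all and 25% of members were lower. With quantile normalization the members' median was -0.07. The share of members called lower was thus no higher than that of all genes at this level, and the values below describe which steps of replication the called members serve. In pools of embryos, fewer embryos with a transcript and less of it per embryo cannot be told apart.

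**Figure D1:**
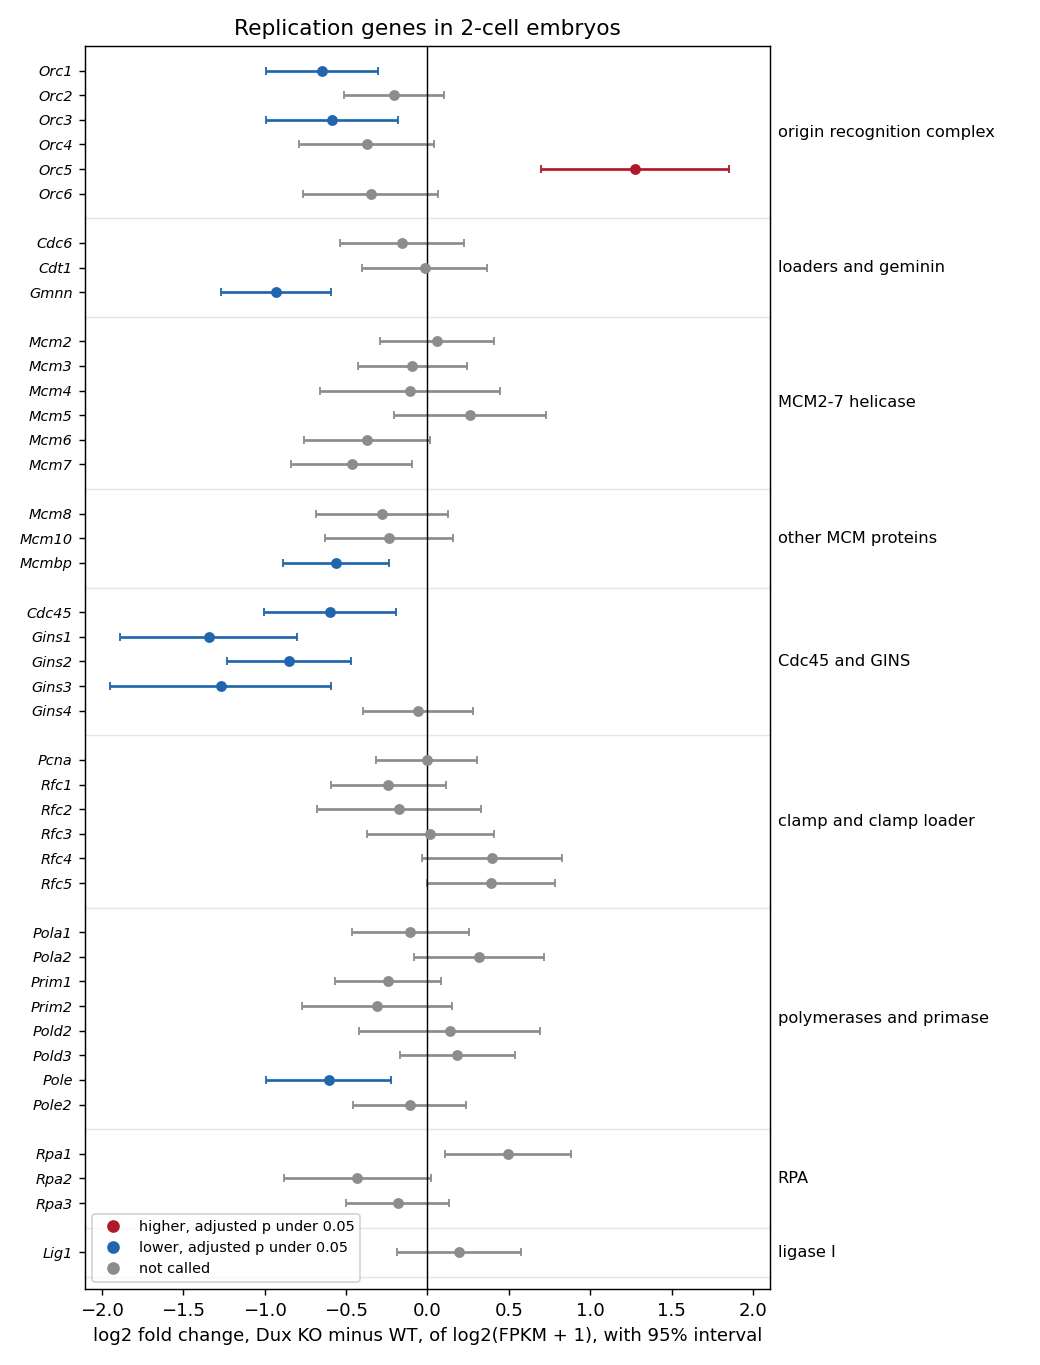
Log2 fold change (Dux KO minus WT, on log2(FPKM + 1)) of each of the 41 members with its 95% interval, 4 pools a group, ordered by role; blue members were called lower, the red member higher, grey members were not called. Gins1, Gins3, Gmnn and Gins2 lie farthest to the left, Orc5 alone far to the right, and the intervals of Pcna and of Mcm2 to Mcm6 include 0.

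Of the 9 members that fell, 4 act in the step that turns the loaded MCM ring into an active helicase. Of the 5 genes of Cdc45 and GINS, these 4 fell (80%) and Gins4 was not called, with a median log2 fold change of -0.85. Of all genes tested 18.1% were lower, and of those with a mean of 5 FPKM or more 29.1%. With only 5 genes in the group, the difference between these shares was not tested. Gins1, which encodes the PSF1 subunit (chromosome 2 at 150905400 to 150931280, GRCm38, GENCODE M21), was at 50.5, 44.6, 46.8 and 60.8 FPKM in WT pools 1 to 4 and at 16.5, 11.4, 27.1 and 26.5 FPKM in Dux KO pools 1 to 4. All Dux KO pools lay under all WT pools, and pools 1 and 2 lay lower than pools 3 and 4. The mean fell from 50.7 ± 7.16 to 20.4 ± 7.72 FPKM (SD, n = 4; log2 fold change -1.34, 95% interval -1.88 to -0.80, limma adjusted p = 0.0045). Without Dux KO pools 1 and 2 the log2 fold change of Gins1 was -0.88 and still called (limma adjusted p = 0.0289).

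Gins3, the PSF3 subunit whose start window is printed above, was at 21.3, 26.8, 32.0 and 31.1 FPKM across the WT pools and at 9.36, 5.45, 21.3 and 12.0 FPKM in Dux KO. Dux KO pool 3 nearly reached the level of WT pool 1, so that the groups all but touched, while Dux KO pool 2 was lowest. The mean fell from 27.8 ± 4.90 to 12.0 ± 6.73 FPKM. For Gins3 the log2 fold change was -1.27 (95% interval -1.95 to -0.59, limma adjusted p = 0.0121). Without Dux KO pools 1 and 2 the value was -0.74 and no longer called (limma adjusted p = 0.0953). Gins2, the PSF2 subunit, was at 15.7, 14.3, 11.6 and 12.5 FPKM across the WT pools and at 7.21, 8.77, 7.21 and 5.27 FPKM in Dux KO, again without overlap. It fell from 13.5 ± 1.82 to 7.12 ± 1.43 FPKM. For Gins2 the log2 fold change was -0.85 (95% interval -1.23 to -0.47, limma adjusted p = 0.0064). Of the annotated exonic bases of Gins2, 67.3% also belong to exons of Gse1 on the other strand; since no source used here states the strand setting of the counting, reads of the 2 genes cannot be told apart. Gse1 was at 0.507 FPKM in WT against 0.552 FPKM in Dux KO and was not called (limma adjusted p = 0.77).

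Gins4, the SLD5 subunit of the same tetramer and the gene of highest mean level over all 8 pools among Cdc45 and GINS, was at 117, 94.9, 137 and 136 FPKM across the WT pools and at 115, 106, 127 and 114 FPKM in Dux KO, so that the ranges of the groups overlapped. For Gins4 the log2 fold change was -0.06 (95% interval -0.40 to 0.28, limma adjusted p = 0.79). Cdt1, Orc2, Mcm7, Pcna and Rpa1, below, were described after their values were seen. Within a pool, Gins1 stood at 34.1 to 47.0% of Gins4 in WT and at 10.7 to 23.1% in Dux KO, comparing levels per length. Gins2 stood at 8.47 to 15.1% of Gins4 and 4.61 to 8.24%, and Gins3 at 18.1 to 28.2% and 5.12 to 16.8%. The difference from Gins4 in log2(FPKM + 1) changed by -1.29 for Gins1, -0.79 for Gins2 and -1.21 for Gins3. Each of these 3 changes, and the 6 given below, had an exact permutation p = 0.0286 (two-sided, 4 against 4 pools). This is the smallest p that the design allows. Adjustment over the 9 pairs compared left 0.0286, as it must where all p-values are equal. The 9 pairs, each with a called member, were chosen after the values were seen, so that these p-values lend the changes no weight.

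Cdc45, the other helicase activator, was at 116, 113, 167 and 168 FPKM across the WT pools and at 98.8, 72.3, 99.2 and 97.4 FPKM in Dux KO. The groups did not overlap, and Dux KO pool 2 lay below the other Dux KO pools. The mean fell from 141 ± 30.5 to 91.9 ± 13.1 FPKM. For Cdc45 the log2 fold change was -0.60 (95% interval -1.0 to -0.20, limma adjusted p = 0.0291). The call depended on single pools: without WT pool 3 or 4 the limma adjusted p was 0.0734 and 0.0874, and without Dux KO pool 1 or 2 0.0537 and 0.058. It was also lost with quantile normalization (-0.35, limma adjusted p = 0.118).

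**Figure D2:**
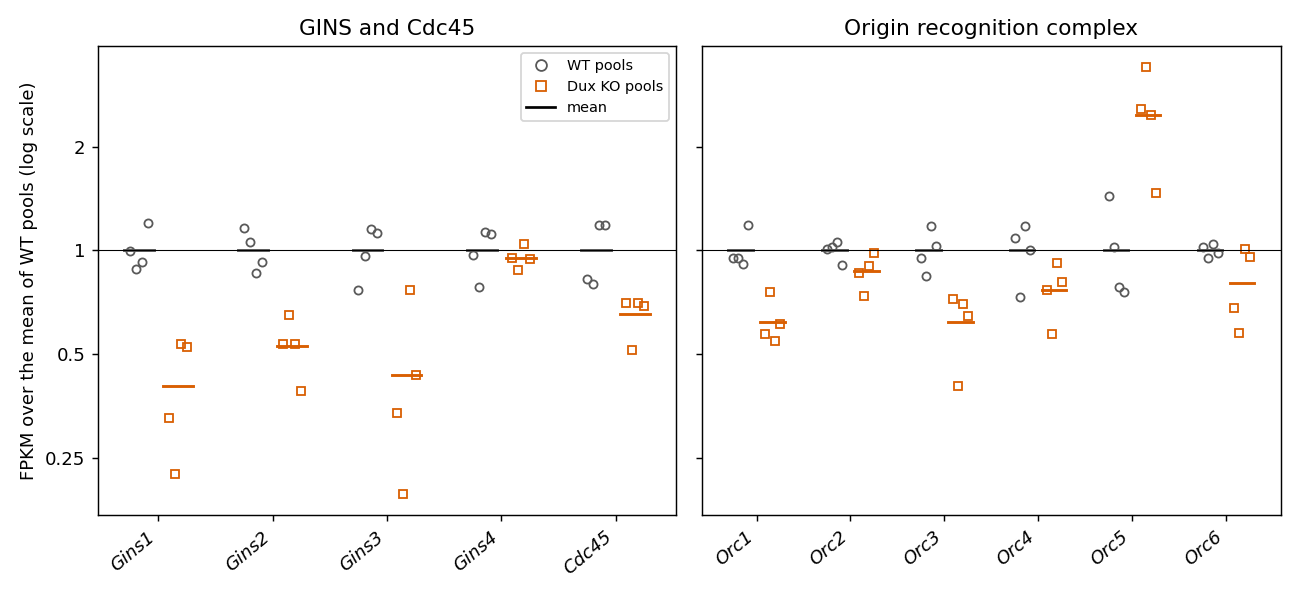
FPKM of each pool over the mean of the 4 WT pools (log scale) for Cdc45 and the GINS subunits (left) and for the origin recognition complex (right); circles are WT pools, squares Dux KO pools 1 to 4 from left to right, bars means. Gins1, Gins2 and Gins3 lie lower in Dux KO while Gins4 stays beside the WT pools, and Orc5 alone of its complex lies higher.

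Among the proteins that load MCM, the transcript of the inhibitor fell and those of the loaders were not called. Gmnn, which encodes geminin (chromosome 13 at 24751845 to 24761923), was the most abundant member, at 1352, 1440.5, 1199.9 and 1198 FPKM across the WT pools and at 614, 648, 830.1 and 642 FPKM in Dux KO. All WT pools lay above all Dux KO pools, and Dux KO pool 3 lay above the other 3 Dux KO pools. The mean fell from 1298 ± 119 to 683 ± 99.0 FPKM, a drop of 47.3% (log2 fold change -0.93, 95% interval -1.27 to -0.59, limma adjusted p = 0.00324), and the call held in each of the 20 alternative analyses. Gmnn made up 43.5 to 53.0% of the summed FPKM of all members in WT and 33.8 to 38.3% in Dux KO. The sum itself was 2707 to 2759 FPKM in WT against 1737 to 2165 in Dux KO, and 1278 to 1559 and 1089 to 1335 FPKM without Gmnn. The whole gene table also summed lower, with 377779 to 425287 FPKM per Dux KO pool against 434070 to 488076 per WT pool. Members held 0.440 to 0.545% of that total per Dux KO pool, against 0.565 to 0.626% per WT pool. The lower sums of members were thus in part shared with all genes. These shares include Gmnn, so that its fall alone lowers them. The mean sum of members in Dux KO was 0.697 times that in WT with Gmnn and 0.851 times without it, where the ranges of the groups overlapped. The lower share thus cannot be read as a fall of the members other than Gmnn.

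Cdt1, the target of geminin, was at 11.5, 10.9, 16.0 and 16.3 FPKM across the WT pools and at 15.9, 12.8, 12.7 and 12.1 FPKM in Dux KO, with overlapping groups. For Cdt1 the log2 fold change was -0.02 (95% interval -0.40 to 0.37, limma adjusted p = 0.951). The level of Gmnn was 118, 133, 74.8 and 73.7 times that of Cdt1 in the WT pools and 38.7, 50.8, 65.2 and 53.1 times in the Dux KO pools, all lower than in WT. Their difference in log2(FPKM + 1) changed by -0.91 (exact permutation p as for the GINS pairs, with the same limit). Cdc6, the loading ATPase, had WT and Dux KO means of 7.25 ± 1.55 and 6.33 ± 0.764 FPKM. For Cdc6 the log2 fold change was -0.16 (95% interval -0.54 to 0.22, limma adjusted p = 0.492). The annotated gene Gm9430, not analysed here, is 95.2% identical to Cdc6 over 1528 bases.

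Of the 6 genes of the origin recognition complex, 1 was called higher and 2 lower, where 15.5% and 18.1% of all genes tested were. Calls in both directions were thus found in the complex as among all genes. With only 6 genes, the difference between these shares was not tested. Orc5, an ATPase subunit (chromosome 5 at 22486485 to 22550429), rose, Orc1 and Orc3 fell, and Orc2, Orc4 and Orc6 were not called. Orc5 was at 49.4, 35.3, 27.0 and 26.0 FPKM across the WT pools and at 88.7, 117, 85.4 and 50.5 FPKM in Dux KO. Dux KO pool 4 lay close to WT pool 1, and the other Dux KO pools lay well above all WT pools. The mean rose from 34.4 ± 10.8 to 85.5 ± 27.4 FPKM, 2.48-fold (log2 fold change 1.27, 95% interval 0.70 to 1.85, limma adjusted p = 0.00657), and the call held without any single pool. Without Dux KO pools 1 and 2 the value was 0.96 and not called (limma adjusted p = 0.0699). Of its exonic bases, 1.46% are shared with the pseudogene Gm15421 on the same strand.

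Orc1, the largest subunit and an ATPase, was at 18.9, 18.9, 18.2 and 23.7 FPKM across the WT pools and at 11.4, 15.04, 10.9 and 12.2 FPKM in Dux KO, without overlap. It fell from 19.9 ± 2.53 to 12.4 ± 1.86 FPKM. For Orc1 the log2 fold change was -0.65 (95% interval -0.99 to -0.31, limma adjusted p = 0.0117). It lost its call without Dux KO pools 3 and 4 (limma adjusted p = 0.0552). Orc3, a core subunit, was at 5.76, 5.10, 7.10 and 6.25 FPKM across the WT pools and at 4.38, 2.44, 4.23 and 3.91 FPKM in Dux KO, also without overlap. It fell from 6.05 ± 0.846 to 3.74 ± 0.887 FPKM. For Orc3 the log2 fold change was -0.59 (95% interval -0.99 to -0.18, limma adjusted p = 0.0317). Its call ended without WT pool 1, 3 or 4 or Dux KO pool 2 (limma adjusted p = 0.0543, 0.0738, 0.0721 and 0.0739).

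Orc6, the most abundant subunit, was at 404, 377, 415 and 388 FPKM across the WT pools and at 269.6, 228, 399.8 and 379.7 FPKM in Dux KO, where only pools 1 and 2 lay under the WT range. For Orc6 the log2 fold change was -0.35 (95% interval -0.76 to 0.07, limma adjusted p = 0.168). Without Dux KO pools 3 and 4 it was called lower (-0.67, limma adjusted p = 0.0174). Orc2 and the ATPase subunit Orc4 had means of 62.5 ± 4.09 and 44.3 ± 8.52 FPKM in WT against 54.4 ± 6.40 and 33.9 ± 6.37 FPKM in Dux KO. Exons of Orc2 and Orc4 overlap those of Nif3l1 and Acvr2a on the other strand, and their transcripts match over 686 and 446 bases. Orc5 was at 0.409 to 0.782 times the level of Orc2 in WT and at 0.823 to 2.55 times in Dux KO. The difference between Orc5 and each other subunit in log2(FPKM + 1) changed by 1.48 (Orc2) to 1.92 (Orc1). Each had the exact permutation p given for the GINS pairs, with the same limit.

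**Figure D3:**
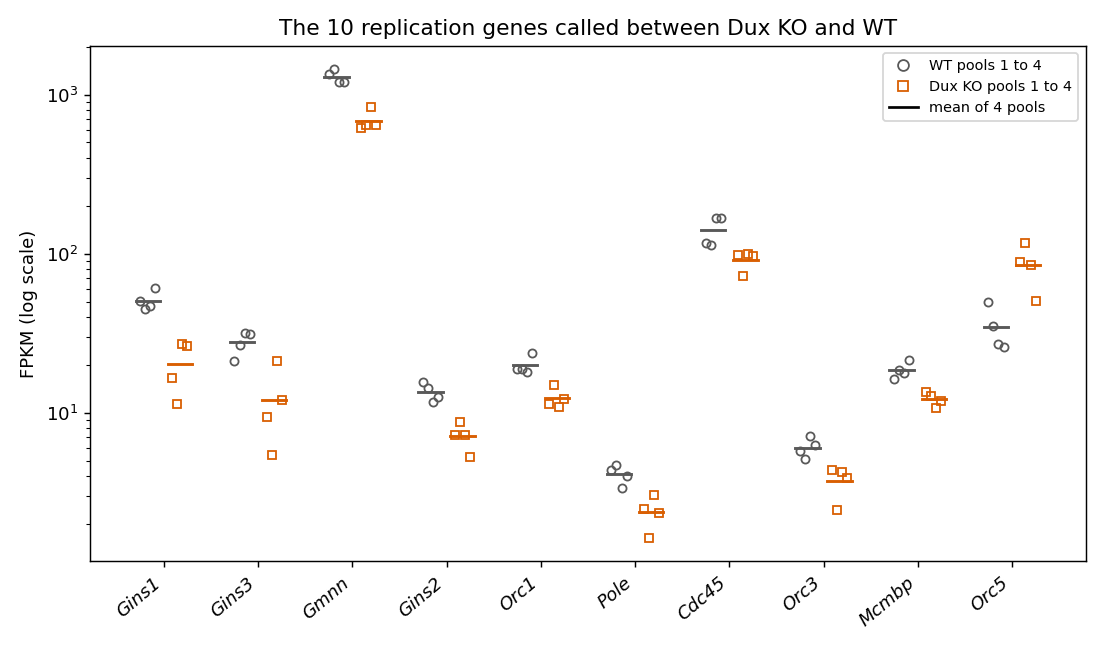
FPKM (log scale) of the 10 called members in every pool, ordered by log2 fold change; circles are WT pools, squares Dux KO pools 1 to 4 from left to right, bars the mean of 4 pools. Gmnn is the highest in both groups, near 1298 FPKM in WT against 683 in Dux KO, and the groups do not overlap for any of the 10, though Gins3 comes close with 21.3 FPKM in both Dux KO pool 3 and WT pool 1.

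The MCM2-7 ring itself is the core of the helicase. By limma 0 of its 6 genes passed, where 33.6% of all genes tested were called. With only 6 genes, this difference in shares was not tested. At an unadjusted p under 0.05, 0 were higher and 1 lower. On recovered reads edgeR called 0 and DESeq2 called 1 lower, Mcm7. The median log2 fold change was -0.10. Mcm6, the most abundant subunit, was at 31.6, 37.4, 51.0 and 48.6 FPKM across the WT pools and at 34.3, 27.6, 30.5 and 35.5 FPKM in Dux KO, with WT pools 3 and 4 above the rest. For Mcm6 the log2 fold change was -0.37 (95% interval -0.76 to 0.02, limma adjusted p = 0.123). Mcm6 stood at 3.69 to 7.95 times the median of the other 5 subunits in WT and at 3.80 to 6.11 times in Dux KO. Mcm7 was at 9.32, 11.7, 7.60 and 9.80 FPKM across the WT pools and at 7.47, 6.02, 7.45 and 5.64 FPKM in Dux KO, without overlap (log2 fold change -0.47, 95% interval -0.84 to -0.09, limma adjusted p = 0.0533); it was called in 5 of the 20 alternatives, and the annotated gene Gm5487, not analysed here, is 97.7% identical to it over 2157 bases. Mcm2, Mcm3, Mcm4 and Mcm5 had WT means of 5.42 to 10.4 FPKM and log2 fold changes of -0.11 to 0.26; their intervals reached from -0.66 (Mcm4) to 0.73 (Mcm5).

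Of the other MCM proteins, Mcmbp, which binds MCM proteins in complexes that lack Mcm2, fell, while Mcm8 and Mcm10 were not called. Mcmbp was at 16.4, 18.5, 17.8 and 21.6 FPKM across the WT pools and at 13.6, 12.8, 10.7 and 11.8 FPKM in Dux KO, without overlap. It fell from 18.6 ± 2.21 to 12.2 ± 1.24 FPKM. For Mcmbp the log2 fold change was -0.56 (95% interval -0.89 to -0.24, limma adjusted p = 0.0165). Its call ended without WT pool 4 (limma adjusted p = 0.0529). Mcm8, a helicase of recombination, and Mcm10, which helps to activate origins, were low, with means of 3.75 ± 0.843 and 4.12 ± 0.892 FPKM in WT against 2.91 ± 0.629 and 3.34 ± 0.653 FPKM in Dux KO.

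Among the members that serve elongation limma called only Pole, where 33.6% of all genes tested were called. That was 1 of 8 polymerase and primase genes, with 0 of 6 of the clamp and its loader, 0 of 3 of replication protein A, and not Lig1. Among the further genes of the pathway given below, 3 of 8 fork factors (Tipin, Clspn and Atad5) were lower (37.5%). So were 2 of 6 genes of primer removal and topology (Rnaseh2a and Dna2, 33.3%), with 0 higher in both groups, while the polymerase subunit Pole3 was higher. Lower were 18.1% of all genes tested, and 29.1% of those with a mean of 5 FPKM or more. These lists are small and were chosen with earlier results known, and the differences in shares were not tested. In the clamp and clamp loader group 0 of 6 were called by limma, with 0 higher and 0 lower at an unadjusted p under 0.05; edgeR called 0 and DESeq2 1 higher, Rfc5. Pcna, the sliding clamp, was at 34.0, 25.6, 33.0 and 30.3 FPKM across the WT pools and at 33.0, 29.7, 29.3 and 29.9 FPKM in Dux KO. For Pcna the log2 fold change was -0.0049 (95% interval -0.31 to 0.30, limma adjusted p = 0.981). All Dux KO pools of Pcna lay within the WT range. The annotated gene Pcna-ps2, not analysed here, is 99.2% identical to it over 781 bases. Rfc4, the loader subunit of highest mean level over all 8 pools, was at 28.3, 18.0, 32.0 and 29.9 FPKM across the WT pools and at 38.9, 28.9, 32.7 and 41.3 FPKM in Dux KO, with Dux KO pools 1, 3 and 4 above the WT range and pool 2 within it. For Rfc4 the log2 fold change was 0.40 (95% interval -0.04 to 0.83, limma adjusted p = 0.135). Rfc1, Rfc2, Rfc3 and Rfc5, the other loader subunits, had log2 fold changes of -0.24 to 0.39, and Rfc5 (96.2% identical over 1020 bases to Gm12870, not analysed here) was called higher without Dux KO pool 4 (0.54, limma adjusted p = 0.0251).

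Of 8 polymerase and primase genes, Pole, the catalytic subunit of the leading strand polymerase, fell and 7 were not called. Lower were thus 12.5%, against 18.1% of all genes tested. Pole was at 4.39, 4.68, 3.36 and 4.02 FPKM across the WT pools and at 2.49, 1.64, 3.03 and 2.35 FPKM in Dux KO, without overlap. It fell from 4.11 ± 0.568 to 2.38 ± 0.576 FPKM. For Pole the log2 fold change was -0.61 (95% interval -0.99 to -0.23, limma adjusted p = 0.0225). Its call ended without WT pool 1 or 2 or Dux KO pool 2 (limma adjusted p = 0.0513, 0.0519 and 0.0567). Its partner Pole2 had means of 10.8 ± 0.756 and 10.1 ± 1.67 FPKM. For Pole2 the log2 fold change was -0.11 (95% interval -0.46 to 0.24, limma adjusted p = 0.604). Prim1, the catalytic subunit of primase and the most abundant gene of the group, was at 46.2, 42.97, 49.0 and 49.2 FPKM across the WT pools and at 46.8, 34.0, 43.6 and 34.6 FPKM in Dux KO. For Prim1 the log2 fold change was -0.24 (95% interval -0.57 to 0.09, limma adjusted p = 0.221). Pola1 and Pola2 of polymerase alpha, the primase subunit Prim2, and Pold2 and Pold3 of the lagging strand polymerase had WT means of 2.82 to 31.7 FPKM and log2 fold changes of -0.31 to 0.31.

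Replication protein A, which coats single-stranded DNA, gave 0 calls among 3 genes by limma, where 33.6% of all genes tested were called. At an unadjusted p under 0.05, 1 was higher and 0 lower, and edgeR and DESeq2 on recovered reads each called Rpa1 higher. Rpa1, the large subunit, was at 2.35, 3.56, 2.16 and 2.26 FPKM across the WT pools and at 4.96, 3.68, 3.33 and 4.12 FPKM in Dux KO, with WT pool 2 inside the Dux KO range. For Rpa1 the log2 fold change was 0.49 (95% interval 0.11 to 0.88, limma adjusted p = 0.0504). It was called in 6 of the 20 alternatives, among them without WT pool 2 (limma adjusted p = 0.0278). Rpa2, the most abundant subunit, was at 68.0, 62.9, 117 and 107 FPKM across the WT pools and at 65.8, 57.1, 61.7 and 68.9 FPKM in Dux KO: the WT pools spread widely and the Dux KO pools lay beside the lower WT pools. For Rpa2 the log2 fold change was -0.43 (95% interval -0.88 to 0.02, limma adjusted p = 0.122). Rpa3 had means of 54.2 ± 6.44 and 47.5 ± 4.38 FPKM. Lig1, the ligase that seals Okazaki fragments, was the lowest member, at 1.54, 1.08, 0.661 and 1.41 FPKM across the WT pools and at 1.19, 1.83, 1.77 and 1.11 FPKM in Dux KO. For Lig1 the log2 fold change was 0.20 (95% interval -0.18 to 0.57, limma adjusted p = 0.391).

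**Figure D4:**
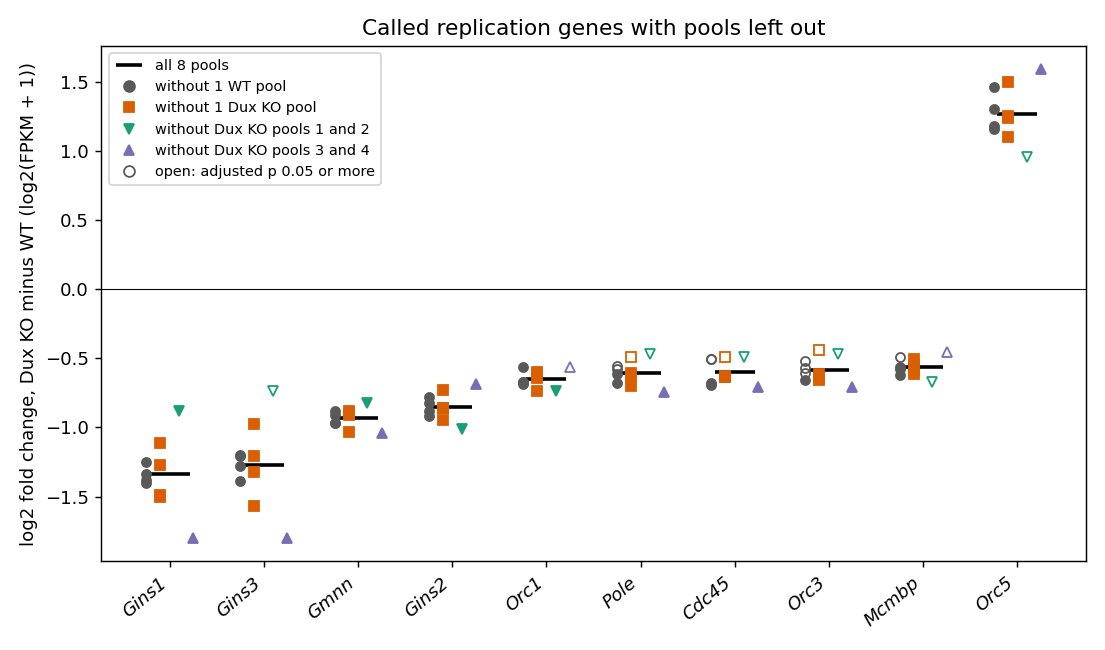
Log2 fold change (Dux KO minus WT, log2(FPKM + 1)) of the 10 called members with all 8 pools (bars) and with 1 or 2 pools left out (points; open points have an adjusted p of 0.05 or more). Each point keeps the sign of its bar; Gins1, Gins2 and Gmnn are filled throughout, while Gins1, Gins3 and Orc5 move toward 0 without Dux KO pools 1 and 2 and away from it without pools 3 and 4.

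For Gins1, Gins3 and Orc5, pools 1 and 2 deviated more from WT than pool 4 did, whereas Gins2 was lowest in pool 4 and Gmnn lay below WT in all 4 pools. The 2 oviduct markers with a row were also highest in Dux KO pools 1 and 2 (25.01 and 31.6 FPKM, against 5.65 and 6.92 in pools 3 and 4). The 3 cumulus and granulosa markers with a row followed another order, at 4.445, 14.02, 5.159 and 18.84 FPKM in Dux KO pools 1 to 4. The part of either list in these values was not tested. Without Dux KO pools 1 and 2, limma called 4 members lower (Gins1, Gins2, Gmnn and Orc1; 10 at an unadjusted p under 0.05) and 0 higher (1 unadjusted), which is 9.76% lower where 3.56% of all genes were; edgeR and DESeq2 were not run on that subset. Without pools 3 and 4 it called 8 lower, 19.5% against 16.9% of all genes, and 2 higher; Orc1 and Mcmbp lost their call there and Orc6 gained one.

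Of 58 further genes of the pathway, 53 were tested, 7 rose (13.2%) and 10 fell (18.9%), close to the shares of all genes; Mcmdc2, Pold4, Skp2 and E2f3 were not analysed here and Top2b was below the minimum level. The 10 that fell were Rnaseh2a, Rrm1, Tyms, Atad5, Clspn, Samhd1, Lrwd1, Tipin, Dna2 and Dtl. Rnaseh2a, the catalytic subunit of the RNase H2 that removes RNA from DNA, was at 14.9, 16.8, 12.3 and 18.7 FPKM across the WT pools and at 6.48, 4.98, 10.3 and 7.77 FPKM in Dux KO, without overlap. For Rnaseh2a the log2 fold change was -1.02 (95% interval -1.48 to -0.56, limma adjusted p = 0.00646). Rrm1, the large subunit of ribonucleotide reductase, fell from 10.1 ± 2.25 to 5.56 ± 1.23 FPKM (log2 fold change -0.75, 95% interval -1.19 to -0.31, limma adjusted p = 0.0171), while its partner Rrm2 was at 66.0 ± 5.30 and 67.2 ± 7.004 FPKM. For Rrm2 the log2 fold change was 0.02 (95% interval -0.28 to 0.33, limma adjusted p = 0.903). Tyms, thymidylate synthase, fell from 10.1 ± 2.18 to 5.65 ± 1.64 FPKM (log2 fold change -0.75, 95% interval -1.21 to -0.29, limma adjusted p = 0.0202), with overlap between the groups.

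The 7 that rose were E2f5, Tfdp1, Pole3, E2f4, Dbf4, E2f8 and Rrm2b, 4 of them among the 12 tested genes of E2F and pocket protein control (33.3%, where 15.5% of all genes tested were higher). This difference in shares was not tested. The lists were chosen with earlier results of these data known, so that it cannot show an excess among E2F genes. Of the 4, E2f8 lay near the minimum level, its mean going from 0.654 to 1.30 FPKM, and the groups overlapped for E2f4. E2f5, a mostly repressive E2F factor, was at 169, 158, 166 and 109 FPKM across the WT pools and at 479, 599, 315 and 241 FPKM in Dux KO, above all WT pools in each. For E2f5 the log2 fold change was 1.37 (95% interval 0.78 to 1.96, limma adjusted p = 0.00539). Tfdp1, the dimer partner of E2F factors, rose from 7.88 ± 0.953 to 12.6 ± 1.37 FPKM. For Tfdp1 the log2 fold change was 0.62 (95% interval 0.28 to 0.95, limma adjusted p = 0.0127). Pole3, an accessory subunit of the polymerase whose catalytic subunit fell, rose from 46.0 ± 4.17 to 70.4 ± 14.3 FPKM. For Pole3 the log2 fold change was 0.59 (95% interval 0.23 to 0.95, limma adjusted p = 0.0204). E2f1, an activating factor, was at 17.4 ± 1.79 and 19.4 ± 2.601 FPKM. For E2f1 the log2 fold change was 0.14 (95% interval -0.19 to 0.48, limma adjusted p = 0.473). Rrm2 and E2f1 were picked after their values were seen. These counts depended on single pools: 4 rose without WT pool 1 and 4 without Dux KO pool 2, 3 rose and 3 fell without WT pool 4, 3 and 4 without Dux KO pool 1, and 1 and 0 without Dux KO pools 1 and 2 (8 lower at an unadjusted p under 0.05).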

How the data were processed

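RNA with poly(A) tails had been amplified to cDNA and sequenced from 4 Dux KO and 4 WT pools. Per the submitters' processing notes, Trimmomatic 0.32, STAR 2.6.1a and SAMtools 1.7 were used with GRCm38; neither they nor the headers state the counter, its strand setting or the test. Per the file headers, the authors deposited FPKM per gene and pool, FPM of repeats (by name a signal scaled to library size), a mean count per gene (a signal), log2 fold changes and Benjamini-Hochberg p-values.

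Genes that reached a mean of 0.5 FPKM were tested on log2(FPKM + 1) with limma 3.58.1 (R 4.3.3; trend and robust moderation, no covariate), adjusted over all 12434; such fold changes understate the change of low genes. The steps of the deposited values gave whole reads for 100% of values (tolerance 0.05), on which edgeR 4.0.16 and DESeq2 1.42.0 were run as alternatives. Coordinates and exon overlaps are from GENCODE M21, start windows from RefSeq. Members and lists were chosen with earlier results of these data known. Values in every pool are given for called members (up to 4 per role) and the most abundant member of each role by the mean over all 8 pools; up to 3 called partner genes are named per direction; windows were sought for the 3 called members of largest change, of which Gins1 had none.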

Additional observations from a re-analysis of the deposited data

Results flagged for a closer look

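In 6 of the 82 sets of 4 pools examined (41 members in each group), 1 pool lay far from the other 3 by Dixon's criterion, which chance meets in about 1 of 20 sets. Among called members, Orc1 was at 23.7 FPKM in WT pool 4, with the other WT pools at 18.2 to 18.9 FPKM. Gmnn was at 830 FPKM in Dux KO pool 3, above 614 to 648 FPKM in the others. Cdc45 was at 72.3 FPKM in Dux KO pool 2, below 97.4 to 99.2 FPKM. Among members not called, Pcna was at 33.0 FPKM in Dux KO pool 1, with the others at 29.3 to 29.9 FPKM, and Pold3 at 41.9 FPKM in the same pool, with the others at 33.5 to 34.1 FPKM. Rpa1 was at 3.56 FPKM in WT pool 2, with the others at 2.16 to 2.35 FPKM.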

How the results depend on the processing

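Over 20 alternatives, 3 of the 10 called members kept their call in each (Gmnn, Gins1 and Gins2), none of the 10 changed sign, and 5 of the 31 others were called at least once (Mcm7, Rpa1, Rfc5, Orc4 and Orc6); 11 of the 31 changed sign. Members higher were 2 with median-of-ratios scaling, limma without trend and robust moderation, the authors' deposited values, edgeR, and without both Dux KO pools 3 and 4, and 3 with DESeq2. Without both Dux KO pools 1 and 2, limma called 795 genes in all, 0 members higher (1 at an unadjusted p under 0.05) and 4 lower, and 1 partner gene higher and 0 lower (8 unadjusted). With quantile normalization the members' median log2 fold change was -0.0685. Leaving out 1 pool at a time gave 2522 (without WT pool 4) to 4049 genes called, 1 to 2 members higher, 3 to 7 partner genes higher and 3 to 11 lower. The cause was not tested. With the replicate number as a block, 1 member was higher and 10 lower, with 4732 genes called in all; same-numbered pools correlated at -0.115, 0.328, -0.055 and 0.302, and not every pool correlated best with its own number, so that the pools share only a number. Depth limits the lowest members, with 34 reads of Lig1 in 1 pool.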
